A study of Mus musculus with 6 samples.

Results

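Expression of 35 genes of cholesterol handling was followed in endothelial cells sorted from mouse brain, out of 54532 genes in the deposited table. The genes were chosen by name for their function, with earlier results of the same libraries known, and all 35 were found in the table. They comprised 20 enzymes of cholesterol synthesis, 5 genes of sterol sensing, 3 of lipoprotein uptake, 4 of intracellular trafficking and storage, and 3 of efflux. The question put to them was whether bezafibrate, a lipid-lowering fibrate that activates PPAR nuclear receptors, was accompanied by a different balance of synthesis and efflux transcripts.

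All mice, in both groups, were 12 to 16 weeks old and carried Df(h22q11)/+, the loss of one copy of the segment that corresponds to 22q11.2 in people. The bezafibrate group ate chow with 0.5% bezafibrate for 4 weeks and gave libraries F_1, M_1 and M_2. The untreated group ate irradiated base chow for the same 4 weeks and gave libraries F_1, F_2 and M_1, with F for female and M for male pools. Values per library are given in these orders, F_1, M_1 and M_2 under bezafibrate and F_1, F_2 and M_1 in untreated mice. Each library was a pool of 3 brains alike in sex, genotype and chow, so that the replicates are pools of separate animals, n = 3 per group, and p-values measure the spread between pools. Wild-type mice were not analysed here. The groups differ in their sexes, with 1 female and 2 male libraries under bezafibrate and 2 female libraries and 1 male library in the untreated group, and the effect of the diet on these cells cannot be told apart from its effects on the rest of the animal.

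Values are FPKM, reads per kilobase of gene, scaled to a library size set by the authors. Recovered reads numbered 16858130 to 19070085 in bezafibrate libraries and 18284412 to 20228619 in untreated libraries. The cells carried the transcripts of brain endothelium, with the tight junction gene Cldn5 at 774 to 1206 FPKM in bezafibrate libraries and 1010.0 to 1386 FPKM in untreated libraries, whereas the neuronal gene Snap25 lay at 0.0491 to 0.188 FPKM in bezafibrate and 0.124 to 0.262 FPKM in untreated libraries. Transcripts of other cells remained, among them choroid plexus Ttr at 397 to 919 FPKM in bezafibrate and 349 to 389 FPKM in untreated libraries. Bezafibrate F_1 and untreated M_1 were set off from the rest along the leading principal component of all genes, with scores of 24.4 and 30.3, while the other 4 libraries scored -22.6 to 1.62. Where leaving out 1 library, or both of these, moved a log2 difference of at least 0.2 in size by over 1.5 times, the value without it is given beside that gene.

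Cholesterol is built from acetyl-CoA through mevalonate, isoprenoids, squalene and lanosterol. When the endoplasmic reticulum runs short of sterol, SCAP escorts the transcription factor SREBP2 away from its INSIG anchors, and the cleaved factor turns on the enzymes of synthesis, lipoprotein uptake and INSIG1 itself. When sterol is plentiful, oxysterols hold SREBP2 back and activate the LXR nuclear receptors, which turn on the exporters ABCA1 and ABCG1 and the ubiquitin ligase MYLIP, which marks lipoprotein receptors for destruction. In the brain, plasma lipoproteins scarcely cross the barrier, and most cholesterol is made locally, largely by glia.

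No gene of the set passed the threshold. Each gene was compared on log2(FPKM + 1) with limma, and a gene was called at a Benjamini-Hochberg adjusted p under 0.05 over all 11277 genes that reached 1 FPKM in at least 3 libraries. Of the 35 genes 31 met that filter and 0 were called, where 0.00887% of all genes tested were called, a single predicted microRNA. The smallest adjusted p among the 31 was 0.986 by limma, for Insig1, the other 30 were at 0.999, and limma-voom on recovered reads also called 0. The values below are therefore descriptions of 6 libraries, in which no difference exceeds what the spread between pools allows to be called.

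More of the genes lay below 0 than above. Of the 31 genes 23 had a log2 difference (bezafibrate minus untreated) below 0, or 74.2%, against 51.8% of all genes tested. The groups did not overlap in 3 genes that were lower under bezafibrate (Insig1, Cyp51 and Msmo1), or 9.68% of the 31, against 4.13% of all genes tested. They did not overlap in 2 that were higher (Mylip and Ggps1), or 6.45%, against 4.29%. An unadjusted p under 0.05 in the limma fit was reached by 4 of the 31 in the lower direction (Insig1, Cyp51, Msmo1 and Idi1) and by 2 in the higher direction (Mylip and Abca1), against 2.08% and 2.1% of all genes. These counts describe genes chosen with earlier results of the same libraries known.

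**Figure D1:**
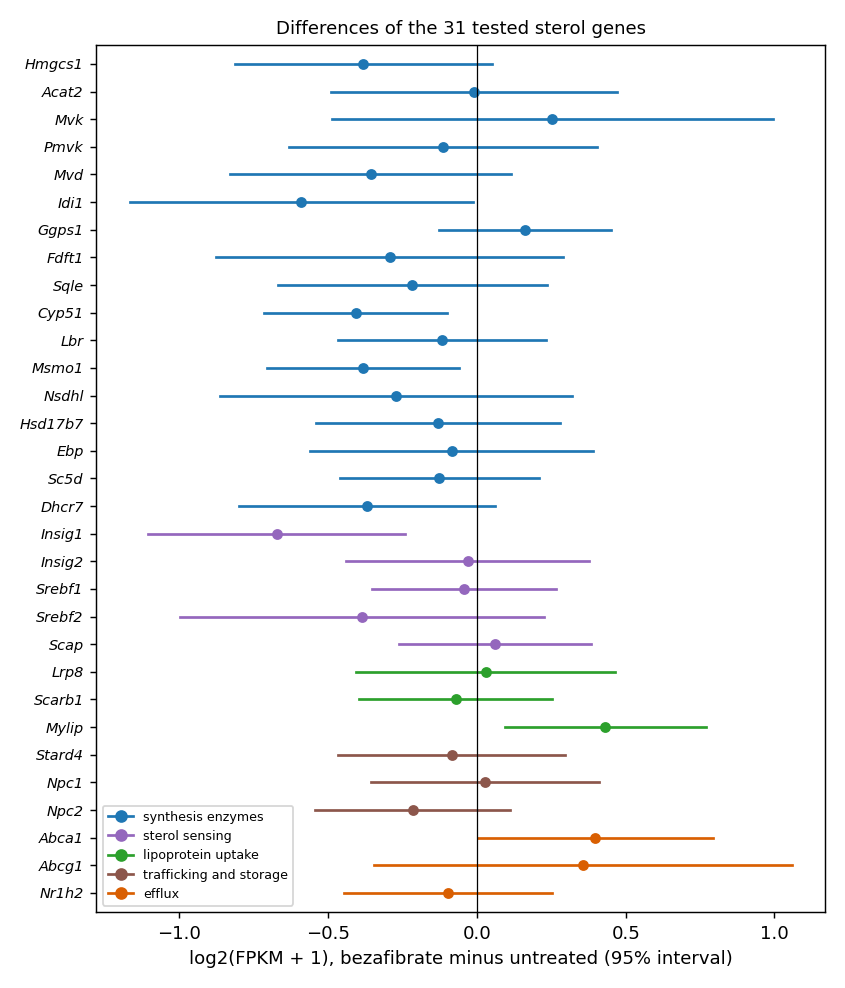
Difference in log2(FPKM + 1), bezafibrate minus untreated, of the 31 genes past the filter, in pathway order and coloured by role (dots, estimate; bars, 95% interval of the limma fit with 3 libraries per group). Intervals that leave out 0 belong to Idi1, Cyp51, Msmo1 and Insig1 on the negative side and to Mylip and Abca1 on the positive side, and no gene was called after adjustment over all genes.

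The promoters of the synthesis genes are shown first, since SREBP2 works at them beside the factor NF-Y, which binds the CCAAT box. RefSeq windows of 250 bases before to 50 bases after the start (GRCm38.p6) were found for 28 of the 35 genes, 17 of them synthesis enzymes. The sterol response element was searched as TCACNCCAC and the box as CCAAT, on both strands. The 2 motifs did not overlap in Hmgcs1, which holds both. A CCAAT box lay in the window of 16 of the 17 synthesis genes, all but Acat2, and of 7 of the 11 other genes, against 41.1% of all 27025 genes with a window. TCACNCCAC was found in 1 of the 28 genes, Hmgcs1, at -137 from the start, against 1.44% of all genes. An LXR element of the DR4 kind, written as AGGTCA, any 4 bases and AGGTCA, matched none of the 28 and 0.0148% of all genes. A match is a description of letters and shows no binding, and the absence of a match says only that these letters are not in the window. Other spellings of the sterol and LXR elements were not searched. The DR4 letters are so rare that their absence from the 28 genes tells nothing of LXR elements there.

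The 250 bases before the start are printed 5′ to 3′ on the gene's strand for Hmgcs1, which holds the match to TCACNCCAC, for Cyp51, Msmo1 and Insig1, whose groups were lower without overlap, and for the LXR targets Mylip and Abca1, which lay above 0. Capitals mark CCAAT or its reverse complement ATTGG and, in Hmgcs1, the match to TCACNCCAC. Sterol or LXR elements of another spelling would stand unmarked.
Hmgcs1 (chr13:119690101-119690350, plus strand): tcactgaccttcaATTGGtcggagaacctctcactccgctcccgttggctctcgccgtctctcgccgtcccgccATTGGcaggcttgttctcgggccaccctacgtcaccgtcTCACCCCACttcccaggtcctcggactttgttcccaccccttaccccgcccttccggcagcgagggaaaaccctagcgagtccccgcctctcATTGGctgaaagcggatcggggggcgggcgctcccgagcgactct
Cyp51 (chr5:4104698-4104947, minus strand): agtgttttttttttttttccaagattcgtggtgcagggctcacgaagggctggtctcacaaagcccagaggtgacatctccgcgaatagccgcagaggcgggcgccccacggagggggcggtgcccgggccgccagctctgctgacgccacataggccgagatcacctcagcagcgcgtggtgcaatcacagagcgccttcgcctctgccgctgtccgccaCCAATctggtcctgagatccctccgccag
Msmo1 (chr8:64733579-64733828, minus strand): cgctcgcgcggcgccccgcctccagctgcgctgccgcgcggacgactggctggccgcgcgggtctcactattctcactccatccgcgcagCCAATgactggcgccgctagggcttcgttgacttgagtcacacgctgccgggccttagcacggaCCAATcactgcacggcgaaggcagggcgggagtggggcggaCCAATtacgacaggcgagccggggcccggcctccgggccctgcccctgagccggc
Insig1 (chr5:28071162-28071411, plus strand): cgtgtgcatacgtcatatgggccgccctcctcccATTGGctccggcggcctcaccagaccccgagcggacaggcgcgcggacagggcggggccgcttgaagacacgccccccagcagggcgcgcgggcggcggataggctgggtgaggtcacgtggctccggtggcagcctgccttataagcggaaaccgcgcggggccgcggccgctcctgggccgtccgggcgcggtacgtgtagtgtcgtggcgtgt
Mylip (chr13:45389492-45389741, plus strand): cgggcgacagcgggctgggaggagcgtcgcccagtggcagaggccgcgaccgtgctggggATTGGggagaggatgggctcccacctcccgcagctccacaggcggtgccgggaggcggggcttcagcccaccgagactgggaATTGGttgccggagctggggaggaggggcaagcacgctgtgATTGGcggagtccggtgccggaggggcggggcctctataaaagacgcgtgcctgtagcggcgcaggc
Abca1 (chr4:53159896-53160145, minus strand): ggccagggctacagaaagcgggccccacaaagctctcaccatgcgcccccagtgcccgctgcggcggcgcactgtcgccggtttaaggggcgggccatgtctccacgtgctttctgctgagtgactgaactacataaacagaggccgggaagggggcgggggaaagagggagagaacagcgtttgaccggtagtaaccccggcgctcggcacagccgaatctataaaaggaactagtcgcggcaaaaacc
Before the start, Hmgcs1, Msmo1 and Mylip each held 3 CCAAT boxes, Cyp51 and Insig1 held 1 each, and Abca1 held 0. The box was therefore present in genes that lay on opposite sides of 0.

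Of the 20 synthesis enzymes 17 were tested, and 15 of these lay below 0 and 2 above, with a median log2 difference of -0.22 (interquartile range -0.37 to -0.11). The median of all genes tested was -0.01. None was called, and 3 enzymes, all lower, were at an unadjusted p under 0.05 in the limma fit, against 2.08% of all genes tested in that direction. The median was -0.13 without untreated F_2 and -0.14 with sex as a covariate, and -0.19 on the TPM scale. The enzymes lower without overlap, Cyp51 and Msmo1, act on lanosterol and its products, the first sterols of the pathway.

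Cyp51 (chromosome 5, 4081145 to 4104746) removes the 14-alpha methyl group of lanosterol. It had 5.60, 5.59 and 5.77 FPKM under bezafibrate, against 7.74, 8.68 and 7.12 FPKM in untreated libraries. The groups did not overlap, the 3 bezafibrate libraries had an SD of 0.102 FPKM, and the gap came to a log2 difference of -0.41 (SE 0.132, adjusted p = 0.999 by limma). Its reads numbered 445 to 525 under bezafibrate and 584 to 687 in untreated libraries. They may include some from Akap9 on the opposite strand, which shares 3.76% of the Cyp51 exon bases, since the use of strand is not given.

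Msmo1 (chromosome 8, 64718139 to 64733792), the oxidase that acts next on the methyl groups of these sterols, had 4.91, 4.22 and 5.33 FPKM under bezafibrate, against 6.12, 6.85 and 6.73 FPKM in untreated libraries. The groups did not overlap here either, at a log2 difference of -0.38 (SE 0.139, adjusted p = 0.999 by limma). Cyp51 and Msmo1 stayed between -0.48 and -0.31 in all 16 alternative fits, each with an adjusted p above 0.05.

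Upstream, Hmgcs1, which makes HMG-CoA at the entry to the mevalonate route, had 8.07, 7.57 and 6.10 FPKM under bezafibrate, against 7.78, 9.65 and 12.1 FPKM in untreated libraries. The groups overlapped through bezafibrate F_1 and untreated F_1, and the log2 difference was -0.38 (SE 0.186). It was -0.24 without untreated M_1, the highest library. Idi1, the isopentenyl diphosphate isomerase, had 3.58, 2.05 and 1.37 FPKM under bezafibrate, against 3.36, 4.13 and 4.04 FPKM in untreated libraries. Bezafibrate F_1 lay among the untreated libraries while both male bezafibrate pools lay below them, at a log2 difference of -0.59 (SE 0.248). Without bezafibrate F_1 the Idi1 difference was -0.85, and without bezafibrate M_2 it was -0.37. A pseudogene, Gm13502, matches 22.6% of the longest Idi1 transcript at 98% identity or more over at least a read length of 75 bases. Some reads from there may not be told apart between the 2 genes. Gm13502 stood at 0.0778 to 0.413 FPKM under bezafibrate and 0.492 to 1.24 FPKM in untreated libraries, and its part in the Idi1 values was not tested.

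Mvd, the mevalonate diphosphate decarboxylase, had 1.43, 1.49 and 2.40 FPKM under bezafibrate, against 2.57, 3.02 and 2.03 FPKM in untreated libraries, on 48 to 84 and 70 to 100 reads. Only bezafibrate M_2 reached the untreated range, and the log2 difference was -0.36 (SE 0.203). Dhcr7, which carries out the final reduction of 7-dehydrocholesterol, had 1.57, 2.34 and 1.57 FPKM under bezafibrate, against 2.18, 2.74 and 3.01 FPKM in untreated libraries. Bezafibrate M_1 lay above the lowest untreated library, and the log2 difference was -0.37 (SE 0.185), or -0.23 without both untreated M_1 and bezafibrate F_1. Both are low transcripts, so that the added 1 in log2(FPKM + 1) understates their change.

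The squalene steps were less even. Sqle, the squalene epoxidase, had 2.18, 1.41 and 1.45 FPKM under bezafibrate, against 2.06, 2.54 and 1.72 FPKM in untreated libraries, with bezafibrate F_1 inside the untreated range. Its difference of -0.22 (SE 0.194) was -0.35 without bezafibrate F_1, -0.12 without untreated F_2 and -0.44 without both bezafibrate F_1 and untreated M_1. Fdft1, the squalene synthase, had 1.59, 3.82 and 3.45 FPKM under bezafibrate, against 4.22, 3.53 and 3.31 FPKM in untreated libraries. Only bezafibrate F_1 lay outside the untreated range by much, and the difference of -0.29 (SE 0.250) was -0.01 without that library, -0.07 without it and untreated M_1, and -0.46 without bezafibrate M_1. Fdft1 also shares 18.3% of its exon bases with Ctsb on the opposite strand, which stood at 27.5 to 32.7 FPKM in bezafibrate and 31.4 to 38.8 FPKM in untreated libraries. Nsdhl, a sterol dehydrogenase of the demethylation complex, had 2.06, 3.36 and 4.83 FPKM under bezafibrate, against 3.90, 5.21 and 3.49 FPKM in untreated libraries, with wide overlap. Its difference of -0.27 (SE 0.254) was -0.03 without bezafibrate F_1, -0.50 without bezafibrate M_2, -0.14 without untreated F_2 and -0.13 without both bezafibrate F_1 and untreated M_1.

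Ggps1 stood on the other side of 0. It makes geranylgeranyl diphosphate for protein prenylation, a branch that leaves the sterol route. It had 8.45, 9.18 and 8.41 FPKM under bezafibrate, against 7.31, 8.01 and 7.64 FPKM in untreated libraries. The groups did not overlap, but the log2 difference was small at 0.16 (SE 0.124, adjusted p = 0.999 by limma). Of its exon bases 5.44% lie opposite Arid4b.

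The other 7 enzymes had overlapping groups. Their log2 differences were -0.01 for Acat2, a cytosolic thiolase, 0.25 for Mvk, the mevalonate kinase, and -0.11 for Pmvk, the phosphomevalonate kinase. They were -0.12 for Lbr, a sterol reductase of the nuclear envelope, -0.13 for Hsd17b7, a sterol ketone reductase, -0.08 for Ebp, the sterol isomerase, and -0.13 for Sc5d, the lathosterol desaturase. Acat2, Pmvk, Lbr and Ebp changed sign in at least 1 alternative fit. So did Mvk, whose difference was 0.53 without bezafibrate F_1, 0.04 without bezafibrate M_1, 0.44 without untreated F_1 and -0.02 without untreated M_1. Lbr was the most abundant enzyme, at 19.9 to 24.5 FPKM in bezafibrate and 21.4 to 27.0 FPKM in untreated libraries. Lss, the lanosterol synthase, and Tm7sf2, another sterol reductase, each reached 1 FPKM in 1 library and were not tested. Lss had 0.427 to 0.828 FPKM in bezafibrate and 0.669 to 1.11 FPKM in untreated libraries, and Tm7sf2 0.546 to 0.858 FPKM in bezafibrate and 0.562 to 1.81 FPKM in untreated libraries. Fdps, the farnesyl diphosphate synthase, stood at 0.0759 to 0.515 FPKM in bezafibrate and 0.0827 to 0.294 FPKM in untreated libraries, on 6 to 39 and 7 to 23 reads, and shares 26.7% of its exon bases with Gm43738 on the same strand. Its level is uncertain for that reason.

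**Figure D2:**
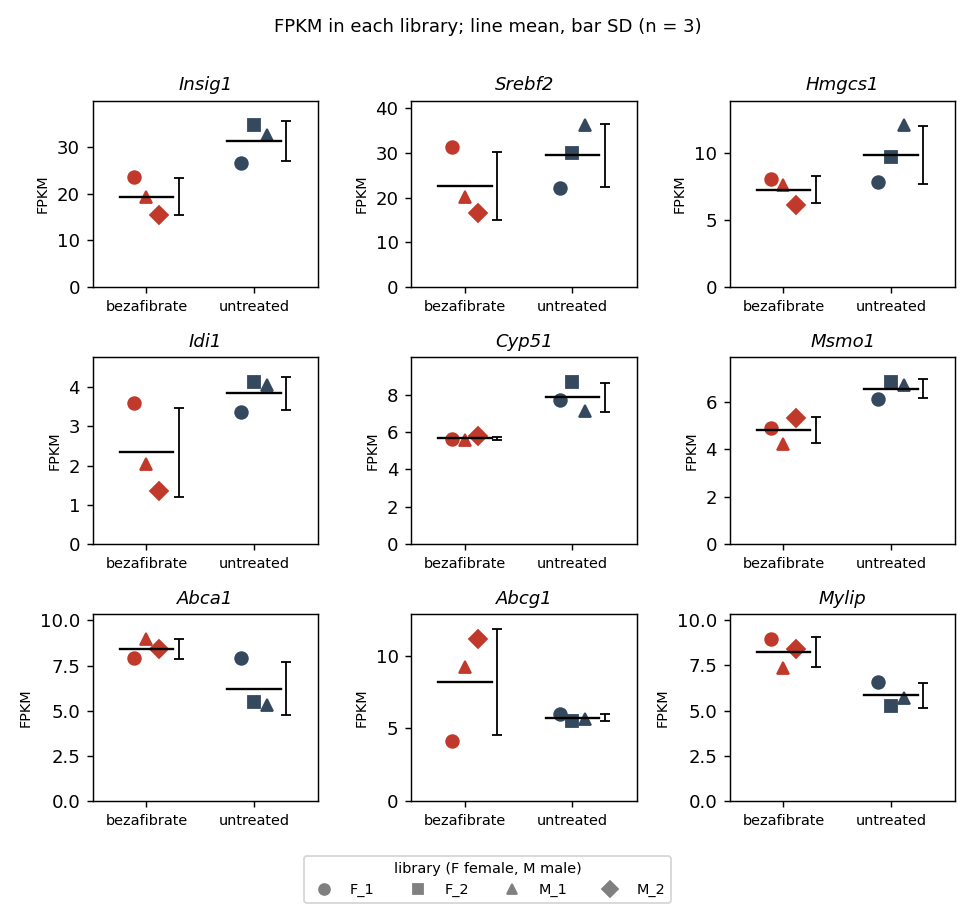
FPKM of 9 genes in each of the 3 bezafibrate and 3 untreated libraries (symbols for libraries, a line for the mean and a bar for the SD). Insig1, Cyp51 and Msmo1 lie lower and Mylip higher under bezafibrate with no overlap, while Abcg1 has bezafibrate F_1 at 4.13 FPKM, below every untreated library, and M_1 and M_2 at 9.24 and 11.1 FPKM, above them.

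Of the 5 sterol-sensing genes 4 lay below 0 and 1 above, with a median log2 difference of -0.04, and Insig1 stood farthest from 0 of all 31 genes tested. Insig1 (chromosome 5, 28071363 to 28078662) encodes the sterol-regulated anchor that holds the SCAP and SREBP complex in the endoplasmic reticulum and is itself an SREBP target. It had 23.5, 19.2 and 15.4 FPKM under bezafibrate, against 26.6, 34.7 and 32.5 FPKM in untreated libraries. Every bezafibrate library lay below every untreated one. The means were 19.4 ± 4.04 FPKM under bezafibrate and 31.3 ± 4.17 FPKM in untreated libraries (SD, n = 3 each), and the log2 difference was -0.67 (SE 0.186, adjusted p = 0.986 by limma) with a 95% interval from -1.10 to -0.24. The log2 difference was -0.36 between female and -0.88 between male libraries. The difference ran from -0.82 to -0.45 over the 16 alternative fits, and its smallest adjusted p in any of them was 0.221.

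Its paralog Insig2, whose transcript is not under SREBP control in most tissues, had 6.57, 8.02 and 8.89 FPKM under bezafibrate, against 9.82, 6.998 and 7.32 FPKM in untreated libraries. The groups overlapped fully, at a log2 difference of -0.03 (95% interval -0.44 to 0.38). The difference between Insig1 and Insig2 was not tested.

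Srebf2, which encodes SREBP2, had 31.2, 20.1 and 16.6 FPKM under bezafibrate, against 22.2, 30.0 and 36.2 FPKM in untreated libraries. Bezafibrate F_1 was among the highest and untreated F_1 among the lowest, and the log2 difference of -0.39 had an SE of 0.263. It was -0.63 without bezafibrate F_1, -0.20 without bezafibrate M_2 and -0.23 without untreated M_1. It was 0.26 between female and -0.95 between male libraries. The ratio of summed reads to the library size used by the authors moved with it, at 1.06, 0.888 and 0.897 under bezafibrate and 0.950, 1.03 and 1.09 in untreated libraries. The part of that ratio in the Srebf2 and Insig1 values was not tested. On the TPM scale, where the median of all genes was 0.10, the log2 differences were -0.28 for Srebf2 and -0.58 for Insig1.

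Srebf1, which encodes the SREBP1 isoforms, had 13.6, 16.0 and 14.8 FPKM under bezafibrate, against 16.3, 15.4 and 14.02 FPKM in untreated libraries. Scap, the sterol-sensing escort, had 8.52, 10.03 and 7.93 FPKM under bezafibrate, against 8.35, 8.85 and 7.95 FPKM in untreated libraries. Neither group stood above the other in these genes, whose log2 differences were -0.04 (95% interval -0.35 to 0.27) and 0.06 (95% interval -0.26 to 0.38).

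Among the 3 uptake genes, Mylip differed most. Mylip (chromosome 13, 45389742 to 45412022) is an LXR target, and its product ubiquitinates receptors of the low-density lipoprotein family, Lrp8 among them. It had 8.97, 7.35 and 8.41 FPKM under bezafibrate, against 6.60, 5.28 and 5.68 FPKM in untreated libraries. Every bezafibrate library lay above every untreated one, with means of 8.24 ± 0.825 FPKM under bezafibrate and 5.85 ± 0.677 FPKM in untreated libraries (SD, n = 3 each), and the log2 difference was 0.43 (SE 0.144, adjusted p = 0.999 by limma) with a 95% interval from 0.10 to 0.77. The difference was 0.53 between female and 0.41 between male libraries, and ran from 0.36 to 0.59 over the 16 alternative fits, with no adjusted p under 0.342.

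Neither receptor had groups apart. Lrp8, the apolipoprotein E receptor 2, had 34.1, 33.6 and 26.3 FPKM under bezafibrate, against 24.2, 36.1 and 32.3 FPKM in untreated libraries, a log2 difference of 0.03 (95% interval -0.41 to 0.47). Scarb1, the scavenger receptor for high-density lipoprotein, had 30.3, 33.7 and 31.3 FPKM under bezafibrate, against 31.1, 38.4 and 31.2 FPKM in untreated libraries, a log2 difference of -0.07 (95% interval -0.40 to 0.25). Their intervals do not show that they were unaltered.

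Trafficking and storage genes also overlapped between groups. Npc2, the soluble lysosomal protein that hands cholesterol to NPC1, had 19.0, 14.5 and 16.4 FPKM under bezafibrate, against 19.9, 19.8 and 18.4 FPKM in untreated libraries. Bezafibrate F_1 alone reached the untreated range, at a log2 difference of -0.22 (SE 0.141). It was -0.13 without bezafibrate M_1 and -0.34 without both bezafibrate F_1 and untreated M_1. Npc1, the membrane partner, had 4.26, 4.91 and 4.47 FPKM under bezafibrate, against 5.28, 4.66 and 3.53 FPKM in untreated libraries, with a difference of 0.03. Stard4, a cytosolic sterol carrier, had 8.81, 12.1 and 10.3 FPKM under bezafibrate, against 12.4, 11.3 and 9.59 FPKM in untreated libraries, with a difference of -0.08. In neither gene did a group stand apart. Soat1, which esterifies cholesterol for storage, stayed below 1 FPKM in every library and was not tested, at 0.528 to 0.812 FPKM under bezafibrate and 0.671 to 0.787 FPKM in untreated libraries.

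Of the 3 efflux genes the 2 transporters lay above 0 and the receptor gene below, with a median log2 difference of 0.36, the value of Abcg1. That median was 0.11 without bezafibrate M_2 and 0.17 with sex as a covariate. Abca1 (chromosome 4, 53030787 to 53159895), which loads cholesterol onto lipid-poor apolipoproteins, had 7.90, 8.98 and 8.39 FPKM under bezafibrate, against 7.90, 5.48 and 5.32 FPKM in untreated libraries. Bezafibrate F_1 and untreated F_1 were level, and the other 2 libraries of each group lay apart. The means were 8.43 ± 0.545 FPKM under bezafibrate and 6.23 ± 1.45 FPKM in untreated libraries (SD, n = 3 each), and the log2 difference was 0.40 (SE 0.170, adjusted p = 0.999 by limma) with a 95% interval from 0.0028 to 0.79. It was 0.23 between female and 0.62 between male libraries, and 0.31 to 0.56 over the 16 alternative fits.

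Abcg1 (chromosome 17, 31057698 to 31115777), which passes cholesterol on to mature lipoprotein particles, had 4.13, 9.24 and 11.1 FPKM under bezafibrate, against 5.98, 5.51 and 5.67 FPKM in untreated libraries. The untreated libraries were tight, whereas the bezafibrate female pool lay below and both male pools above them. The log2 difference of 0.36 (SE 0.302) joins -0.39 between female and 0.74 between male libraries. It was 0.73 without bezafibrate F_1, 0.11 without bezafibrate M_2, 0.23 without bezafibrate M_1, 0.73 without both bezafibrate F_1 and untreated M_1, and 0.17 with sex as a covariate. A difference between the sexes and a difference of 1 pool cannot be told apart, since bezafibrate F_1 is the only treated female library. Nr1h2, which encodes LXR-beta, the broadly expressed LXR, had 61.4, 46.4 and 51.9 FPKM under bezafibrate, against 52.0, 58.2 and 60.1 FPKM in untreated libraries, a log2 difference of -0.10 (95% interval -0.45 to 0.25). The receptor was the most abundant transcript of the 35 per kilobase in each library, and its groups overlapped.

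Set beside each other, the mean synthesis level lay lower in each bezafibrate library than in every untreated one. The mean efflux level lay higher in 2 of the 3 bezafibrate libraries. The mean log2(FPKM + 1) level of the 17 tested synthesis enzymes was 2.39, 2.53 and 2.46 under bezafibrate, against 2.65, 2.75 and 2.57 in untreated libraries. The groups did not overlap in this level. The mean level of Abca1, Abcg1 and Nr1h2 was 3.82, 4.08 and 4.19 under bezafibrate, against 3.90, 3.76 and 3.78 in untreated libraries, with bezafibrate F_1 among the untreated libraries. Nr1h2 by itself lay lower in bezafibrate M_1 and M_2 than in every untreated library. The summed FPKM of these efflux genes, most of it Nr1h2, overlapped between groups. It was 73.4, 64.6 and 71.4 under bezafibrate, against 65.9, 69.2 and 71.1 in untreated libraries. Synthesis minus efflux was -1.43, -1.55 and -1.73 under bezafibrate, against -1.24, -1.01 and -1.20 in untreated libraries. This balance did not overlap between groups and averaged -1.57 ± 0.148 under bezafibrate and -1.15 ± 0.126 in untreated libraries (SD, n = 3 each), a gap of -0.42. No p is given, since the genes were chosen with results of these libraries known.

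**Figure D3:**
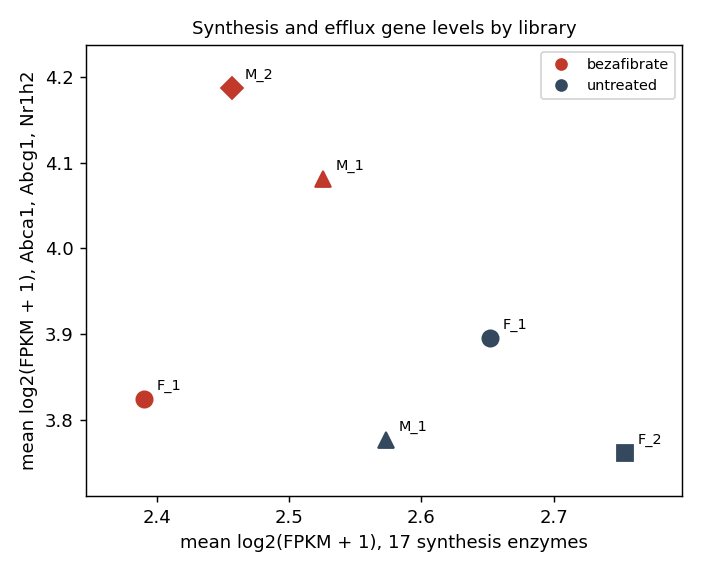
Mean log2(FPKM + 1) of the 17 tested synthesis enzymes (x axis) and of Abca1, Abcg1 and Nr1h2 (y axis) in each library. The 3 bezafibrate libraries lie to the left of the 3 untreated libraries, at 2.39 to 2.53 against 2.57 to 2.75, and bezafibrate M_1 and M_2 lie above the rest on the efflux axis, at 4.08 and 4.19.

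Between female libraries 15 of the 17 enzymes (88.2%) lay lower under bezafibrate, against 48.4% of all genes tested, with a median log2 difference of -0.34. Between male libraries 10 of the 17 (58.8%) did, near the 51.1% of all genes tested, with a median of -0.11. Over all 31 genes tested, 24 lay lower between female libraries, and 15 lay lower and 16 higher between male libraries. For the efflux genes the medians were 0.16 between female libraries, the value of Nr1h2, and 0.62 between male libraries, that of Abca1. The genes were split in both sexes. Between female libraries Abca1 was at 0.23 and Abcg1 at -0.39, and between male libraries Abcg1 was at 0.74 and Nr1h2 at -0.29. Each comparison within a sex has a group of 1 library, and a limma fit of treatment by sex called 0 of the 31 genes (smallest adjusted p = 0.0670, for Mvk) against 0.665% of all genes tested. In 13 of the 31 every library of one sex lay on the opposite side of its controls from those of the other sex, against 41.6% of all genes tested, a like share. Without both bezafibrate F_1 and untreated M_1, which were set off from the rest, the synthesis median was -0.23, the efflux median 0.35 and the gap in balance -0.52.

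Further genes of the pathway, 45 in 3 lists, were read in the same way. Of these 37 were tested and 0 called, against 0.00887% of all genes tested. In the limma fit 3 were at an unadjusted p under 0.05, against 2.08% of all genes in the lower and 2.1% in the higher direction. Fads1, the delta-5 desaturase and an SREBP target, had 12.0, 13.5 and 13.1 FPKM under bezafibrate, against 21.7, 15.8 and 18.2 FPKM in untreated libraries, a log2 difference of -0.49 (SE 0.152). Tmem97, a sterol-regulated partner of NPC1, had 3.68, 2.36 and 2.40 FPKM under bezafibrate, against 3.76, 5.51 and 4.58 FPKM in untreated libraries, a log2 difference of -0.57 (SE 0.196). Scd1, the stearoyl-CoA desaturase that LXR, SREBP1 and PPAR are all known to induce, had 6.28, 6.73 and 6.81 FPKM under bezafibrate, against 4.08, 3.23 and 5.02 FPKM in untreated libraries, a log2 difference of 0.59 (SE 0.165). The groups did not overlap in any of these 3 genes, and the adjusted p was 0.986 for Scd1 and 0.999 for the others by limma. Of all genes tested 4.13% were lower and 4.29% higher without overlap.

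The lists around them had medians near 0. Genes of SREBP cleavage and sterol-linked degradation lay above 0 in 7 and below 0 in 6 of 13, with a median of 0.01. Genes of fatty acid synthesis and desaturation lay above 0 in 3 and below 0 in 8 of 11 tested, with a median of -0.06. Genes of sterol transfer, hydrolysis, oxysterols and other efflux lay above 0 in 3 and below 0 in 10 of 13 tested, with a median of -0.08. Among them Ch25h, which makes the LXR ligand 25-hydroxycholesterol, differed by 0.15 (SE 0.235) and Cyp27a1, the sterol 27-hydroxylase, by -0.19 (SE 0.281). Ufd1 and Slc25a1 lie within the 22q11.2 interval, which is hemizygous in all 6 libraries, and differed by -0.04 and 0.03.

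Oligodendrocyte and astrocyte markers lay on the same side of 0 as most synthesis genes. Other glial lists were less even. Microglial markers lay below 0 in 3 of 4 tested, with Tmem119 at 0.15 and higher without overlap. Oligodendrocyte precursor markers lay below 0 in 1 of 2 tested. All 10 oligodendrocyte markers lay below 0, against 51.8% of all genes tested, with a median of -0.24 and summed levels of 424 to 903 FPKM in bezafibrate and 499 to 1039.9 FPKM in untreated libraries. Of the 10 markers 2 were at an unadjusted p under 0.05 by limma, against 2.08% of all genes tested in the lower direction. Most of each sum was Mal, at 330.5 to 806 FPKM in bezafibrate and 342 to 902 FPKM in untreated libraries, and the other 9 markers summed to 93.5 to 104 FPKM in bezafibrate and 95.6 to 156 FPKM in untreated libraries. All 8 astrocyte markers did, with a median of -0.25 and summed levels of 28.5 to 52.0 FPKM in bezafibrate and 42.4 to 64.0 FPKM in untreated libraries. Endothelial markers lay below 0 in 9 of 10, with a median of -0.13, and summed to 5132 to 8295 FPKM in bezafibrate and 5882 to 8652 FPKM in untreated libraries. Pericyte markers lay below 0 in 6 of 7, with a median of -0.25, and summed to 181 to 256 FPKM in bezafibrate and 185 to 333 FPKM in untreated libraries. No marker in the oligodendrocyte, astrocyte, endothelial and pericyte lists was called or stood at 0 in all libraries. Fewer cells of a type and less RNA per cell cannot be told apart in bulk samples. The mean log2 level of the oligodendrocyte markers was 3.575, 3.501 and 3.554 under bezafibrate, against 3.989, 3.582 and 3.943 in untreated libraries. As in the mean synthesis level, the groups did not overlap, although bezafibrate F_1 and untreated F_2 were nearly level. The part of glial transcripts in the lower synthesis levels was not tested.

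Ependymal and choroid plexus markers lay on the same side as Abca1 and Abcg1. All 7 lay above 0, against 5432 of all 11277 genes tested, with a median of 0.24. They summed to 456, 621 and 1027 FPKM under bezafibrate, against 463, 408 and 443 FPKM in untreated libraries. Of the 7, 2 (Ttr and Clic6) were higher without overlap, against 4.29% of all genes tested. Clic6 alone was at an unadjusted p under 0.05 by limma, against 2.1% of all genes in that direction. Between female libraries 3 of the 7 lay above 0 and 4 below. Bezafibrate M_2 was highest both in these markers and in Abcg1, and bezafibrate F_1 was level with the untreated libraries in the markers and below them in Abcg1. Immediate early and dissociation genes lay below 0 in 14 of 15, against 51.8% of all genes tested, with a median of -0.20. In this list 4 genes (Junb, Ier2, Nr4a1 and Dusp1) were lower without overlap, against 4.13% of all genes tested. Nr4a1, an immediate early nuclear receptor singled out after its values were seen, had 412, 289 and 365 FPKM under bezafibrate, against 849, 622 and 530.2 FPKM in untreated libraries. Its log2 difference of -0.89 (SE 0.221, adjusted p = 0.962 by limma) was farther from 0 than that of Insig1 or any other of the 31 genes. The part of either list in the values above was not tested.

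**Figure D4:**
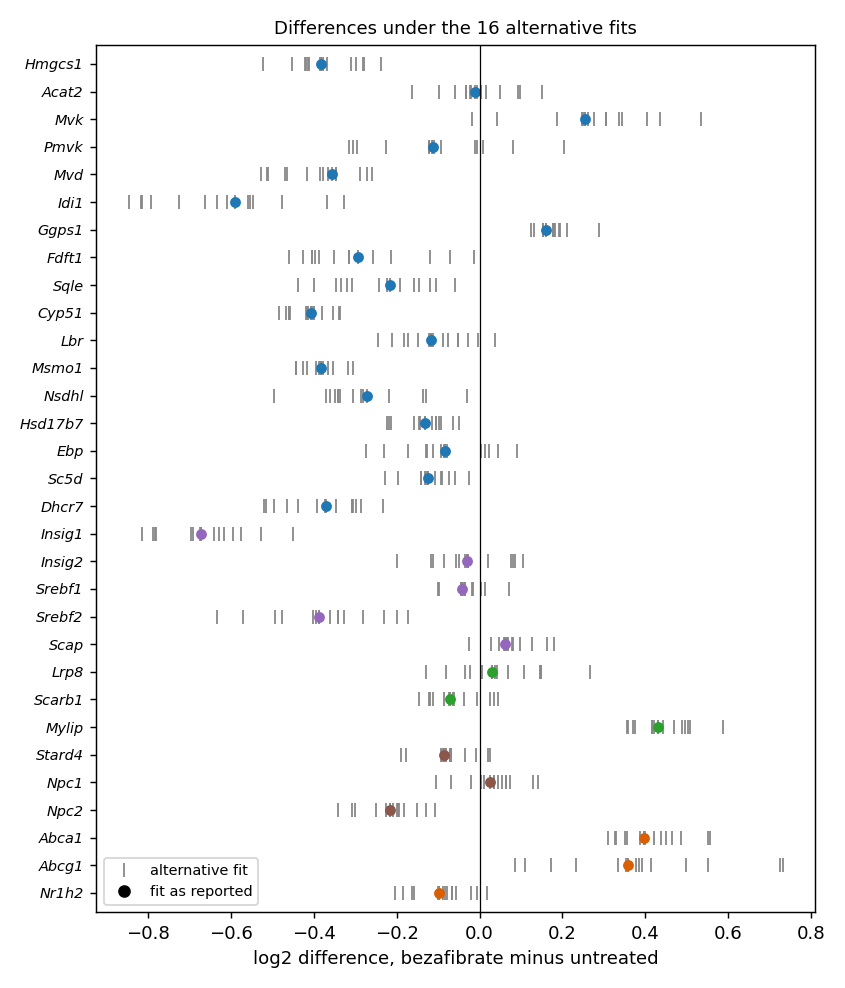
Log2 difference, bezafibrate minus untreated, of each of the 31 genes in the fit as reported (dots) and in the 16 alternative fits (ticks). Insig1, Cyp51 and Msmo1 stay below 0 and Mylip and Abca1 above 0 in each fit, whereas Acat2, Ebp, Insig2 and Lrp8 lie on both sides of 0.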

How the data were processed

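RNA-seq values of CD31-positive, CD45-negative, PDGFRb-negative cells sorted from dissociated brains were analysed. Per the labels' protocols, cDNA was made with SMART-Seq HT, libraries with Nextera XT, reads were single-end and of 75 bases, and they were de-duplicated and mapped with Salmon. GRCm38 is named in the submitters' processing notes. The sources used here do not give the Salmon version, the annotation, the use of strand or the normalisation. The authors deposited FPKM per gene, with gene lengths. The untreated male library was matched to its column by the sample's description, since the number in its title differs.

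FPKM times length fell on whole multiples of a step for 100% of values (tolerance 0.01 reads), which gave reads per gene. Intervals cover the spread between pools. Genes with at least 1 FPKM in 3 libraries were fitted with limma 3.58.1 in R 4.3.3 on log2(FPKM + 1), with a trend and no covariate, two-sided, and tested on simulated data. Copies were sought with blastn 2.17.0 at 98% identity over 75 bases. Promoters are from RefSeq. Exon overlaps are from GENCODE M21.

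The genes, lists and alternatives were chosen with earlier results of these data known. All 35 genes are named. Values per library are given for the sensing, uptake, trafficking and efflux genes tested and for the 10 enzymes with the smallest p, and among further genes for those at an unadjusted p under 0.05. The 16 alternatives changed the pseudocount, filter, scaling, model, covariates, weights or libraries.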

Additional observations from a re-analysis of the deposited data

Results flagged for a closer look

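In 13 of the 31 genes tested, the female bezafibrate library lay on one side of both untreated female libraries while both male bezafibrate libraries lay on the other side of the untreated male library. The same was true of 41.6% of all genes tested, near the share among the 31, so that the count is not particular to these genes. The 2 lone libraries in this contrast are bezafibrate F_1 and untreated M_1, which stood apart in all genes. Sex and these libraries therefore cannot be told apart. The female minus male difference in the bezafibrate effect (log2, limma fit of treatment by sex, chosen after the data were seen) was -1.66 for Mvk, -1.14 for Abcg1, -1.01 for Fdft1, -0.78 for Ebp, -0.76 for Acat2, -0.59 for Stard4, -0.51 for Npc1, -0.48 for Insig2, -0.34 for Srebf1 and -0.24 for Scarb1. It was 1.21 for Srebf2, 0.55 for Pmvk and 0.44 for Nr1h2. None of these passed an adjusted p under 0.05 by limma, and each rests on 1 bezafibrate female and 1 untreated male library.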

How the results depend on the processing

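Of the 31 genes tested, 0 were called in each of the 16 alternative fits, and 18 kept their sign in all of those that could be fitted. The count of all genes called, 1 as reported, was 0 by limma-voom, with the replicate block and with untreated M_1 and bezafibrate F_1 both left out, and 0 to 3 with 1 library left out (0 without bezafibrate M_1 or M_2, 3 without bezafibrate F_1). The synthesis median, -0.22 as reported, was -0.32 with a pseudocount of 0.1, -0.12 at an FPKM of at least 5 (fewer enzymes tested), -0.33 by limma-voom, and -0.24 to -0.13 (without untreated F_2) with 1 library left out. The efflux median, 0.36 as reported, was 0.17 with sex as a covariate, 0.087 with the replicate block, and 0.11 (without bezafibrate M_2) to 0.44 with 1 library left out. The gap in balance, -0.42 as reported, was -0.27 with the replicate block and -0.49 to -0.34 with 1 library left out. Where not named, the cause was not tested. The libraries share a name across groups only in F_1 and M_1, whose deviations from the group means correlated at -0.36 and -0.30, so that the names were not taken as a pairing. On the TPM scale the median over all genes tested was 0.10, against -0.01 as reported.

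Signs that reversed were as follows. Rescaling to TPM gave 0.10 for Acat2, 0.023 for Ebp, 0.080 for Insig2, 0.018 for Nr1h2, 0.044 for Scarb1, 0.070 for Srebf1 and 0.024 for Stard4. Array weights gave 0.049 for Acat2, 0.013 for Ebp, 0.085 for Insig2 and -0.082 for Lrp8. The replicate block gave 0.037 for Lbr, 0.20 for Pmvk and 0.036 for Scarb1. Acat2 was 0.0043 by limma-voom and 0.015 with sex as a covariate. Without both untreated M_1 and bezafibrate F_1, Ebp was 0.0028, Insig2 0.021 and Npc1 -0.068. With 1 library left out, Acat2 ran from -0.16 to 0.15, Mvk from -0.019 to 0.53, Pmvk from -0.30 to 0.082, Ebp from -0.23 to 0.090, Insig2 from -0.12 to 0.10, Srebf1 from -0.099 to 0.013, Scap from -0.025 to 0.13, Lrp8 from -0.13 to 0.15, Scarb1 from -0.12 to 0.026, Stard4 from -0.19 to 0.020 and Npc1 from -0.11 to 0.13. With 3 pools per group an exact permutation test cannot go below p = 0.1, and Mvd and Fdps rest on 48 to 100 and 6 to 39 reads per library.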
